A study of Mus musculus with 6 samples.

Results

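The genes described here are 57 genes of mitosis, spindle assembly and chromosome segregation, taken by gene symbol from the 17691 genes in the deposited tables and grouped by the function of their products. The cells were erythroblasts of C57BL/6J mice, immature red cells that still have a nucleus, taken from fetal liver. TER119-negative cells, which lack the surface antigen of later erythroid stages, were isolated and grown in medium with Epo (erythropoietin), the hormone on which early red cells depend for survival and division. One group of 3 libraries came from cells left untreated, and the other from cells given carbon dots (CDs), small carbon particles made from the plant Codonopsis pilosula, at 1 ug/ml for 30 h. Both groups therefore share the strain, the tissue, the selection against TER119, the Epo medium and the time of 30 h. They differ by CDs alone as far as the labels go. The age of the embryos, the number of litters and what a replicate number stands for are not given in the sources used here. All 57 genes passed the filter on low counts and were tested.

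In a dividing cell, a cyclin bound to the kinase Cdk1 drives entry into mitosis. Condensin then packs the chromosomes, kinesins and spindle proteins build the spindle, and the kinetochores attach chromosomes to it under the watch of the spindle checkpoint. Once that checkpoint is satisfied, Cdc20 activates the anaphase-promoting complex, a ubiquitin ligase that marks cyclin B and securin for destruction, and cytokinesis follows. Erythroblasts go through several such divisions while they fill with haemoglobin, and leave the cell cycle before the nucleus is expelled, so that the transcripts of these genes are abundant in early erythroblasts and sparse in late ones. Most are made in a burst late in each cycle under the MuvB complex with B-MYB and FOXM1, which binds a promoter motif named the cell cycle genes homology region, or CHR.

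Levels of the mitotic genes were slightly lower with CDs than without, by an amount smaller than the differences between libraries of one group, and no mitotic gene passed the test without a replicate block. The median log2 fold change over the 57 genes was -0.14, against 0.01 over all 12284 genes tested, and 54 of the 57 were below 0, as were 48.1% of all genes tested. The edgeR quasi-likelihood test called 0 of the 57 at an adjusted p under 0.05, and 0 genes of all those tested (0%). At an unadjusted p under 0.05 the same test took 0 of the 57 and 127 of all genes (1.03%). DESeq2 called 14 genes and limma-voom 0, none of them among the 57. The direction depended on single libraries: without the CDs library 3 the median over the 57 genes was 0.08 and 10 were below 0, and without the untreated library 3 the median was -0.28. Without the CDs library 1 it was also -0.28, and with both libraries numbered 3 left out it was -0.11.

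For each of the 57 genes, the 3 untreated libraries differed among themselves by more than the 2 groups did. The range of an untreated group ran from 0.35 on the log2 CPM scale in Cdc25b to 0.99 in Hmmr. In 56 of 57 genes the fold change was smaller than its standard error, which was derived from the F statistic of the edgeR test. The exception was Cks2. No gene had its 3 CDs libraries all below the 3 untreated ones (0 of 57, against 2.33% of all genes tested) or all above them (0 of 57, against 2.36%). With the untreated library 3 left out, 24 of the 57 had all CDs libraries below the remaining untreated ones, against 19.0% of all genes. In 56 of the 57 genes the untreated library 3 was the lowest untreated library, as in 46.3% of all genes, and in 56 the CDs library 3 was the lowest CDs library, as in 45.3%. The plot of levels by library shows this as a blue column for library 3 of each group.

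**Figure D1:**
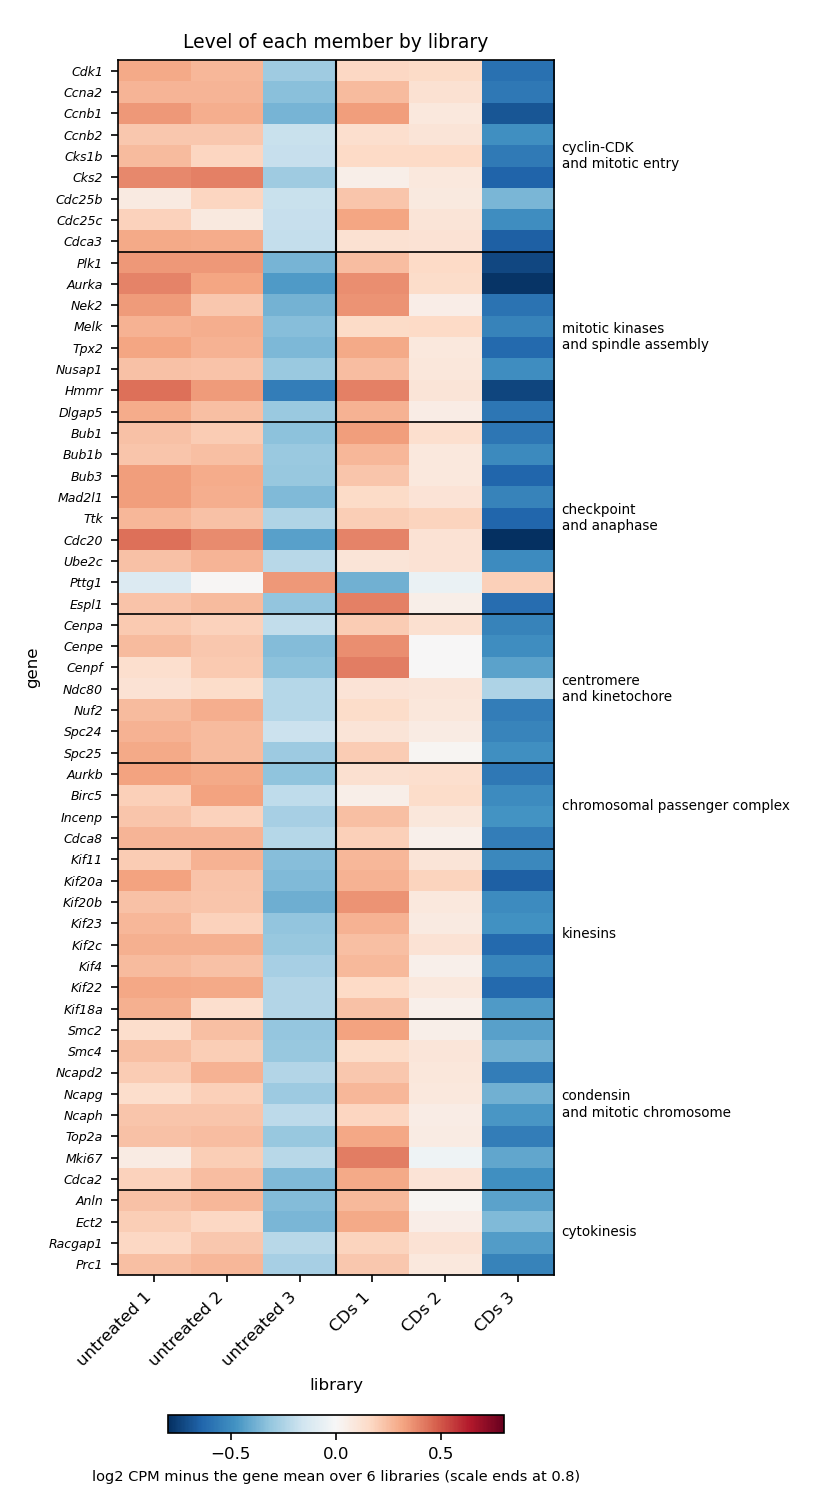
Each row is 1 of the 57 mitotic genes, ordered by function, and each column 1 library. Colour gives log2 CPM (counts scaled to a common library total) minus the gene's mean over the 6 libraries, red above and blue below that mean; untreated 3 and CDs 3 are the lowest of their groups in all rows but Pttg1.

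Deviations from group means correlated between same-numbered libraries at 0.91, 0.33 and 0.94 over all genes tested and at 0.75, 0.28 and 0.88 over the 57. Libraries of unlike number were not compared in this way, and number 2 was the weakest. On this basis each CDs library was also set against the untreated library of its number. In the pair numbered 1, 34 of the 57 genes were lower with CDs, with a median difference of -0.02 in log2 CPM, against 43.7% of all genes tested and their median of 0.04. In the pair numbered 2, 56 were lower, with a median of -0.17, against 50.3% of all genes and 0.00. In the pair numbered 3, 56 were lower, with a median of -0.25, against 50.4% and 0.00. Together 34 genes were lower in all 3 pairs (26.2% of all genes tested were) and 0 were higher in all 3 (3708 of the 12284 genes tested were). The small difference in pair 1 depended on scaling: with library totals in place of TMM factors its median over the 57 genes was 0.003 and 28 were lower.

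With the replicate number as a block in the edgeR fit, which takes the spread between numbers out of the error, 5 genes were called (0.0407%) and 0 of the 57. The smallest adjusted p among the 57 in that fit was 0.0917, for Cks2. At an unadjusted p under 0.05, 16 of the 57 were lower in the blocked fit, against 11.9% of all genes tested. DESeq2 with the replicate block called 1210 genes, 257 of them lower (2.42% of the genes to which it gave an adjusted p), and 1 of the 57, Cks2. The median log2 fold change over the 57 was -0.15 with the edgeR block.

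**Figure D2:**
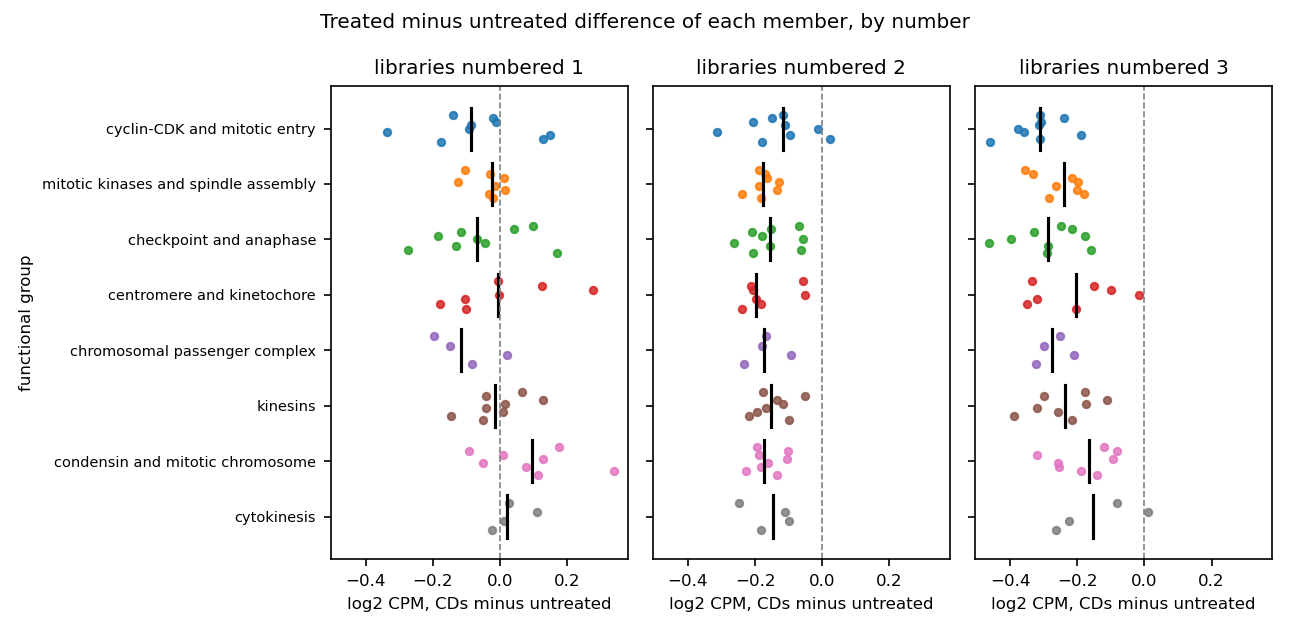
Each point is 1 mitotic gene, placed by the log2 CPM of the CDs library minus that of the untreated library of the same number, in 1 panel for each number; rows are functional groups and black bars their medians. Points straddle 0 in the pair numbered 1, and 56 of 57 lie below 0 in each of the pairs numbered 2 and 3.

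The promoters of 3 genes show what most of these genes share and where they differ. Sequences are from RefSeq on GRCm38.p6, run 5′ to 3′ on the strand of the gene from 250 bases before an annotated transcript start to 50 after it, and stand in lower case with motif matches in capitals. The motifs are the CHR, searched as TTTGAA and TTCGAA, and the CCAAT box, searched as CCAAT, each on both strands with overlapping matches counted. Other spellings of the CHR were not searched, so a gene described as without a CHR lacks only these letters. Cdc20 and Plk1 hold both motifs and were among the genes with the widest spread between libraries, and Cks2 had the lowest fold change of the 57 and holds the CCAAT box alone. They were chosen after their values were seen.
Cdc20 (chr4:118437294-118437593, minus strand): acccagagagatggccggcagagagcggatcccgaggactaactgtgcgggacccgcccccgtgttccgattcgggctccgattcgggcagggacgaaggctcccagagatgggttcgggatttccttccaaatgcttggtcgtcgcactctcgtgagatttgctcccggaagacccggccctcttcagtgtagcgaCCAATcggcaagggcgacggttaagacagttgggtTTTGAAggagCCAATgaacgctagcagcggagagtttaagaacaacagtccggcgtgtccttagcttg
Plk1 (chr7:122159185-122159484, plus strand): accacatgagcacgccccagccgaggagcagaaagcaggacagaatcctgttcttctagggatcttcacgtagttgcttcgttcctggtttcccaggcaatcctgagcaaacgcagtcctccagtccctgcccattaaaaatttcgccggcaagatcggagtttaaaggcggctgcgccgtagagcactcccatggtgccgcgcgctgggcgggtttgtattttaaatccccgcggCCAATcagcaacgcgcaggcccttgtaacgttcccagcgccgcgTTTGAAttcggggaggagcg
Cks2 (chr13:51644982-51645281, plus strand): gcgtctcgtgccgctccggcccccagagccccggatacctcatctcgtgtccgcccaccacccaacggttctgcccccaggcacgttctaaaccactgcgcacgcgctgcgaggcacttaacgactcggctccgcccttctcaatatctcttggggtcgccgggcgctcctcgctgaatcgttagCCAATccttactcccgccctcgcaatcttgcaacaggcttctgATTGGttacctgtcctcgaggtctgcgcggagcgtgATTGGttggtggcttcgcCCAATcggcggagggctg

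Counting the first base of the transcript as 1 with no position 0, the CHR begins at -18 in Cdc20 and at 31 in Plk1. The CCAAT box begins at -53 and -8 in Cdc20, at -14 in Plk1, and at -65, -22, 15 and 33 in Cks2. Of the 57 genes, 47 had a promoter entry, 3 of them with 2 entries. The window began at the outermost annotated start of the gene in 23 of the 47, among them Cdc20, Plk1 and Cks2. It began over 100 bases inside the gene in 7, and over 1000 bases inside in 2 of these, Pttg1 and Kif2c, whose outermost start was not searched. A CHR was found in 35 of these 47 genes (74.5%), against 16.9% of the 9875 tested genes with an entry and 21.7% of all 27025 genes with one. A CCAAT box was also found in 35 (74.5%), against 43.6% and 41.1%, and both motifs in 31 (66.0%), against 7.2% and 8.6%. In 31 DNA replication genes with an entry the CHR was found in 7 (22.6%) and the CCAAT box in 21 (67.7%). A match describes these letters and is not evidence of binding.

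The 12 genes with an entry and no match to the CHR letters searched were Birc5, Ccnb1, Cenpe, Cks2, Kif18a, Mad2l1, Melk, Ncaph, Nek2, Nuf2, Nusap1 and Pttg1, the last with its window inside the gene. Their median log2 fold change was -0.15, and that of the 35 genes with a CHR was -0.13. By pair number the medians were -0.08, -0.17 and -0.22 without a CHR and -0.00, -0.18 and -0.26 with one. The 2 sets overlapped, with log2 fold changes from -0.33 to -0.06 without a CHR and from -0.25 to 0.01 with one.

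In the accounts that follow, values are CPM on TMM-scaled totals in the order of libraries 1, 2 and 3, and differences by pair are in log2 CPM. Fold changes are log2, CDs over untreated, from the edgeR fit unless another is named. Their standard error is the size of the log2 fold change over the square root of the F statistic. Counts of genes lower in all 3 pairs are to be read beside the 26.2% of all genes tested that were. No fold change named below passed the edgeR test without the block: adjusted p ran from 0.994 to 1.00 over the 57 genes. Levels between genes are compared in FPKM, which allow for transcript length. By that measure Ube2c stood highest of the 57, with a mean of 925 FPKM over the 6 libraries, followed by Mki67 at 390.3 and Ccna2 at 351. Kif18a at 15.6 FPKM and Ttk at 17.3 FPKM were the lowest.

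The 9 genes of mitotic entry, cyclins, Cdk1 and their activators, had a median log2 fold change of -0.15, and 7 of them were lower in all 3 pairs. Cks2 (chr13:51645232-51650662 on GRCm38.p6), a small subunit that binds cyclin-dependent kinases, measured 172, 174 and 108 CPM untreated and 136, 140.0 and 84.4 CPM with CDs. Every CDs library was below the untreated library of its number, yet the CDs libraries 1 and 2 stayed above the untreated library 3, so the groups overlapped. The group means were 152 ± 37.5 CPM untreated and 120.3 ± 31.1 CPM with CDs (SD, n = 3), and the log2 fold change was -0.33 ± 0.29, the lowest of the 57 genes, with an unadjusted p of 0.290 in the edgeR fit. By pair the differences in Cks2 were -0.34, -0.31 and -0.36, nearly the same in each number. DESeq2 with the replicate block gave Cks2 a log2 fold change of -0.35 ± 0.10 and an adjusted p of 0.00520, and over all alternatives run its adjusted p ranged from 0.00520 to 1.00.

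Cdk1, the kinase at the centre of mitotic entry, measured 260.3, 254 and 173 CPM untreated and 236, 234 and 139.6 CPM with CDs. The untreated libraries 1 and 2 were the highest and the 2 libraries numbered 3 the lowest, and its log2 fold change was -0.17 ± 0.28. Ccna2 (chr3:36564865-36573038), the A-type cyclin of S phase and early mitosis, measured 1181, 1179 and 775 CPM untreated and 1164, 1062 and 657 CPM with CDs. Its pair 1 was nearly level and its log2 fold change was -0.12 ± 0.29. Ccnb1, the main mitotic cyclin, measured 478, 458 and 289.9 CPM untreated and 474, 397 and 234 CPM with CDs, again with a nearly level pair 1.

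Cdca3 (chr6:124829530-124833701), which promotes mitotic entry, measured 471, 470.5 and 335 CPM untreated and 417, 415 and 243 CPM with CDs. Its log2 fold change of -0.25 ± 0.27 was the second lowest of the 57, and its CDs libraries 1 and 2 lay between untreated library 3 and the other untreated libraries. Cdc25b (chr2:131186436-131198511), a phosphatase that activates Cdk1, measured 513, 549 and 431 CPM untreated and 569, 514 and 378 CPM with CDs. Here the CDs library 1 was the highest of all 6, and the log2 fold change was -0.03 ± 0.20. The remaining genes of this group, Ccnb2, Cks1b and Cdc25c, had log2 fold changes of -0.15, -0.14 and -0.02.

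Of the 8 mitotic kinases and spindle assembly factors, 6 were lower in all 3 pairs, with a median log2 fold change of -0.14. Plk1 (chr7:122159435-122169884), the polo-like kinase of centrosome maturation and mitotic exit, measured 529.6, 529 and 321 CPM untreated and 493, 464 and 251 CPM with CDs. Its log2 fold change was -0.19 ± 0.34, while the untreated libraries alone spanned 0.72 on the log2 scale. Aurka, the Aurora kinase of spindle poles, measured 408, 386 and 226 CPM untreated and 399, 342 and 179.7 CPM with CDs, and Hmmr, a spindle-associated protein, measured 487, 455 and 244 CPM untreated and 476, 386 and 216 CPM with CDs. In both, library 3 was by far the lowest of each group, and Hmmr had the widest untreated range of the 57 genes.

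Tpx2 (chr2:152847964-152895321), which activates Aurora A on spindle microtubules, measured 585, 569 and 366 CPM untreated and 579, 499 and 305 CPM with CDs. Its log2 fold change was -0.14 ± 0.31, with a nearly level pair 1. Melk (chr4:44300909-44364675), a kinase made in proliferating cells, measured 86.1, 86.9 and 56.3 CPM untreated and 79.0, 79.4 and 49.0 CPM with CDs, and its differences by pair were -0.12, -0.13 and -0.20. The 3 others, Nek2, Nusap1 and Dlgap5, had log2 fold changes of -0.10, -0.09 and -0.14.

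The 9 genes of the spindle checkpoint and anaphase had a median log2 fold change of -0.16, with 6 lower in all 3 pairs. Ube2c (chr2:164769929-164772902), the ubiquitin-conjugating enzyme of the anaphase-promoting complex, measured 983, 1011 and 719 CPM untreated and 897, 908 and 589.5 CPM with CDs. The CDs libraries 1 and 2 lay between untreated library 3 and the other untreated libraries, and the log2 fold change was -0.18 ± 0.24. Cdc20, the activator of that complex, measured 301, 288 and 164 CPM untreated and 292, 240.0 and 119 CPM with CDs, and its log2 fold change of -0.21 ± 0.41 had the largest standard error of the 57 genes. Mad2l1, the checkpoint protein that holds Cdc20 back, measured 173, 167 and 107 CPM untreated and 152, 148 and 94.7 CPM with CDs. Its differences by pair were -0.18, -0.18 and -0.18, almost the same in each number.

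Pttg1 (chr11:43420244-43427463), which encodes securin, the inhibitor of separase, was the only one of the 57 with another order of libraries. It measured 51.3, 55.5 and 70.4 CPM untreated and 42.4, 53.1 and 63.0 CPM with CDs. Library 3 was the highest of each group, where it was the lowest in the other 56 genes, and each CDs library was below the untreated library of its number. The log2 fold change was -0.16 ± 0.20. Espl1 (chr15:102296254-102324357), which encodes separase, the protease that cuts cohesin, measured 289.8, 295 and 198 CPM untreated and 326, 255 and 162 CPM with CDs. Its CDs library 1 was the highest of the 6, its pairs differed by 0.17, -0.21 and -0.29, and its log2 fold change was -0.07 ± 0.31. Among the other checkpoint genes the log2 fold change was -0.20 in Bub3, -0.14 in Ttk, -0.09 in Bub1b and -0.04 in Bub1.

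Of 7 centromere and kinetochore genes, 5 were lower in all 3 pairs and the median log2 fold change was -0.11. The NDC80 complex, which grips microtubules, has 4 subunits among them. Spc24 (chr9:21755434-21760446) measured 89.9, 88.2 and 65.6 CPM untreated and 79.5, 77.7 and 51.5 CPM with CDs, with a log2 fold change of -0.22 ± 0.23, and all its CDs libraries lay below the untreated libraries 1 and 2. Ndc80 itself measured 75.3, 77.1 and 59.4 CPM untreated and 75.1, 74.4 and 58.7 CPM with CDs, with a log2 fold change of -0.02 ± 0.17 and the smallest standard error of the 57. Nuf2 and Spc25 lay between them, at -0.19 and -0.18.

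Cenpe (chr3:135212563-135273540), a kinesin motor of the kinetochore, measured 274, 268 and 181 CPM untreated and 299, 231 and 164 CPM with CDs, and Cenpf (chr1:189640606-189688107), a large kinetochore protein, measured 285, 301 and 207 CPM untreated and 346, 261 and 193 CPM with CDs. In both genes the CDs library 1 was the highest of the 6, above its untreated partner, while pairs 2 and 3 were lower with CDs. Their log2 fold changes were -0.06 ± 0.28 and 0.01 ± 0.27, and that of Cenpf turned to -0.01 with DESeq2. Cenpa, the centromeric histone, had a log2 fold change of -0.11.

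The 4 genes of the chromosomal passenger complex, which corrects faulty attachments and guides cytokinesis, had the lowest group median, -0.20, with 3 lower in all 3 pairs. Birc5 (chr11:117849237-117855743), which encodes survivin, measured 324, 355 and 247 CPM untreated and 293, 314 and 200.3 CPM with CDs. Its log2 fold change was -0.20 ± 0.24, and the CDs libraries 1 and 2 lay below the untreated libraries 1 and 2 but above untreated library 3. Aurkb, the kinase of the complex, measured 249, 246 and 159 CPM untreated and 217, 219 and 134 CPM with CDs, with a log2 fold change of -0.20 ± 0.28. Cdca8 (chr4:124918465-124936917), which encodes borealin, measured 318, 319 and 225 CPM untreated and 301, 271 and 179.8 CPM with CDs, with a log2 fold change of -0.20 ± 0.25. Incenp (chr19:9872295-9899489), the scaffold, measured 449, 438 and 320.4 CPM untreated and 455, 410.4 and 277 CPM with CDs, with a level pair 1 and a log2 fold change of -0.08 ± 0.25. The first 3 of these thus had nearly equal fold changes, each within 1 standard error of 0.

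The 8 kinesins, motors that move on spindle microtubules, had a median log2 fold change of -0.11, and 4 were lower in all 3 pairs. Kif11 (chr19:37376382-37421863), the motor that pushes spindle poles apart, measured 458, 484 and 315 CPM untreated and 479.8, 428 and 279 CPM with CDs. Its CDs library 1 lay between the untreated libraries 1 and 2, and its log2 fold change was -0.08 ± 0.28. Kif22 (chr7:127027729-127042467), which moves chromosome arms outward, measured 244, 242 and 167 CPM untreated and 220.2, 209 and 128 CPM with CDs. It had the lowest log2 fold change of the kinesins, -0.23 ± 0.27, and its differences by pair were -0.15, -0.22 and -0.39. Kif20a, needed for cytokinesis, measured 299, 280.3 and 187 CPM untreated and 290.2, 270.3 and 152 CPM with CDs, with a log2 fold change of -0.11 ± 0.31. The 5 others, Kif20b, Kif23, Kif2c, Kif4 and Kif18a, ranged from -0.15 to -0.02.

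Of the 8 condensin and mitotic chromosome genes, 2 were lower in all 3 pairs, near the 26.2% of all genes tested. Their median log2 fold change was -0.07. Mki67 (chr7:135689784-135716450), which encodes the Ki-67 protein that coats mitotic chromosomes, measured 3845, 4197 and 3144 CPM untreated and 4866, 3585 and 2756 CPM with CDs. The CDs library 1 was the highest of the 6 by a wide margin, the CDs libraries 2 and 3 lay below their untreated partners, and the log2 fold change was 0.00 ± 0.26 between means of 3729 ± 536 CPM untreated and 3736 ± 1063 CPM with CDs (SD, n = 3). Top2a (chr11:98992947-99024199), the topoisomerase that untangles sister chromatids, measured 1177, 1188 and 813 CPM untreated and 1242, 1047 and 682 CPM with CDs, with a log2 fold change of -0.10 ± 0.29. Its pair 1 was also higher with CDs and its other pairs lower.

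Ncaph (chr2:127103809-127133954), the subunit that closes the condensin I ring, measured 257, 256 and 190.0 CPM untreated and 248, 228 and 159 CPM with CDs. It was lower in each pair, with a log2 fold change of -0.15 ± 0.22. The condensin core subunits Smc2 and Smc4 had log2 fold changes of -0.03 and -0.09, Ncapd2 -0.15, Ncapg -0.01, and Cdca2, a phosphatase-targeting protein of late mitosis, -0.04.

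The 4 cytokinesis genes had a median log2 fold change of -0.09, with 1 lower in all 3 pairs, near the 26.2% of all genes tested. Prc1 (chr7:80294445-80316259), which bundles the midzone microtubules, measured 466, 474 and 328 CPM untreated and 458, 418 and 273 CPM with CDs, and was the gene lower in each pair, with a log2 fold change of -0.14 ± 0.26. Racgap1 (chr15:99620496-99651656), part of the complex that positions the cleavage furrow, measured 249.5, 259 and 191 CPM untreated and 252, 242 and 163 CPM with CDs, with a log2 fold change of -0.09 ± 0.22. Anln (chr9:22331214-22389211), an actin-binding protein of the contractile ring, measured 168, 171 and 112 CPM untreated and 171, 144 and 106 CPM with CDs, with its CDs library 1 close to the untreated libraries 1 and 2. Ect2 (chr3:27097222-27154253), which activates RhoA at the furrow, measured 117, 114 and 78.9 CPM untreated and 126, 106 and 79.6 CPM with CDs. Its log2 fold change was 0.01 ± 0.24, 1 of 3 above 0 among the 57 (with Cenpf and Mki67), and it turned to -0.01 with DESeq2. In Ect2 the CDs library 1 was the highest and both libraries numbered 3 the lowest, with nearly the same value.

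The difference followed transcript length in the pairs numbered 1 and 3, with the higher correlation in pair 1. Across the 57 genes, the Spearman correlation of the difference with the length implied by the deposited counts and FPKM was 0.77 in pair 1, -0.08 in pair 2 and 0.58 in pair 3. Across 8337 genes of at least 10 CPM it was 0.48, 0.10 and 0.31. These are correlations across genes that share libraries and are given as a description. In pair 1, the 19 genes with the shortest transcripts (674 to 2103 bases) had a median difference of -0.12, and 18 were lower with CDs. The middle 19 (2218 to 3413 bases) had a median of -0.02 with 13 lower, and the 19 longest (3526 to 10727 bases) one of 0.10 with 3 lower. From shortest to longest, the medians of these sets were -0.18, -0.14 and -0.18 in pair 2 and -0.32, -0.24 and -0.18 in pair 3. Cks2 at 674 bases is the shortest of the 57, and Cenpf at 10727 and Mki67 at 9519 bases are the longest.

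The same order ran through the fold changes. Their medians were -0.19, -0.14 and -0.07 from the 19 shortest to the 19 longest. When the trend of each library on transcript length was taken out, an alternative chosen after seeing the data, the medians of the same 3 sets were -0.17, -0.17 and -0.16. The median over the 57 genes was then -0.17 and 57 of 57 were below 0 (54.3% of all genes were), but 0 were called. With that correction Cenpf and Mki67 both stood at -0.14.

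**Figure D3:**
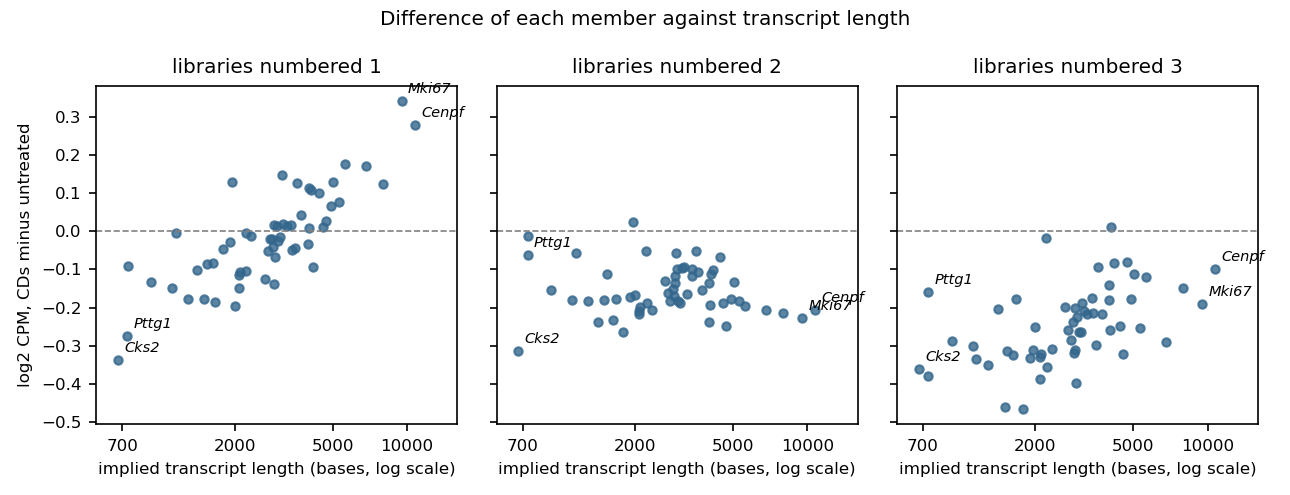
Each point is 1 of the 57 mitotic genes, placed by its implied transcript length in bases (log scale) and by the log2 CPM difference of CDs minus untreated, in 1 panel for each number. In the panel numbered 1 the points climb from Cks2 and Pttg1 at the short end, near -0.3, to Cenpf and Mki67 at the long end, near 0.3, and in the panel numbered 2 they run level. In the panel numbered 3 they also rise with length, with 56 of the 57 below 0.

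Summed over the 57 genes, the level was 21889, 22257 and 15492 CPM in the untreated libraries and 22736, 19708 and 13150.1 CPM with CDs. These sums correspond to 1.37% to 2.25% of each library's counts. The libraries numbered 3 were the lowest of each group, and the largest sum was in the CDs library 1, to which Mki67 contributed 4866 CPM. In RNA from a whole culture, fewer dividing cells and less of these transcripts per cell cannot be told apart.

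Markers of other cells also differed between libraries, and those of macrophages moved with number and with CDs. The summed level of 14 macrophage markers was 176, 520.2 and 4654 CPM untreated and 406, 1707 and 5897 CPM with CDs, which in libraries 3 came to 0.475% and 0.615% of counts. Of the 12 macrophage markers tested, 12 had a log2 fold change above 0 (median 0.77). Of these, 11 were higher in all 3 pairs, as were 3708 of the 12284 genes tested. DESeq2 with the replicate block called 11 of the 12 higher, among 953 genes called higher in that fit. edgeR with the block called 0 of the 12. Among the defining macrophage genes, Adgre1 and Csf1r were present in all libraries, while Vsig4 was at 0 in 5 of the 6 and Cd163 was under 0.35 CPM in each. Mast cell and basophil markers summed to 56.5, 123 and 355 CPM untreated and 78.3, 172 and 289 CPM with CDs. Those of megakaryocytes summed to 103, 107 and 103 CPM untreated and 139, 142 and 95.4 CPM with CDs. Both sums were higher with CDs in pairs 1 and 2 and lower in pair 3. Granulocyte markers summed to between 284 and 2165 CPM, hepatocyte markers to between 171 and 463 CPM and endothelial markers to between 174 and 501 CPM. Most of the endothelial sum was 1 gene, Flt1, at 158, 144 and 133 CPM untreated and 473, 391 and 252 CPM with CDs. Cdh5, Tek, Stab2 and Lyve1 did not exceed 3.90 CPM in any library. Pecam1 measured 5.11, 8.13 and 38.0 CPM untreated and 7.55, 21.9 and 47.7 CPM with CDs. Kdr measured 0.671, 2.30 and 22.6 CPM untreated and 2.63, 5.68 and 27.4 CPM with CDs. Of the 6 endothelial markers tested, 5 were higher in all 3 pairs and 1, Egfl7, was lower in all 3. With the log2 macrophage sum as a covariate in the edgeR fit, the median log2 fold change over the 57 mitotic genes was 0.03, 17 were below 0 (46.2% of all genes were) and 0 were called. All 12 erythroid markers were present, from Gata1 to the globins, and their sum lay between 57697 and 74462 CPM, with libraries 3 again the lowest of each group. Of these 12, 10 had a log2 fold change below 0 (median -0.08), as did 48.1% of all genes tested. In all 3 pairs 5 were lower, as were 26.2% of all genes. Library 3 was the lowest untreated library in 11 of the 12 and the lowest CDs library in 12, against 46.3% and 45.3% of all genes.

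**Figure D4:**
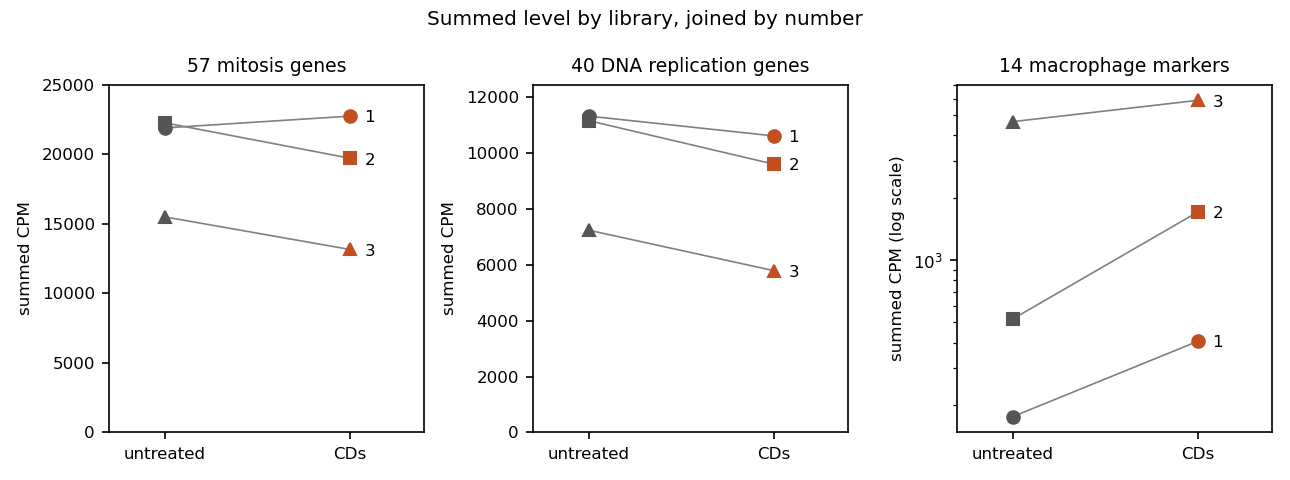
Summed CPM of the 57 mitotic genes, of 40 DNA replication genes and of 14 macrophage markers (log scale in the last panel), with 1 point for each library and a line joining the libraries of the same number. The mitotic sum was higher with CDs in pair 1 and lower in pairs 2 and 3, the replication sum was lower in all 3 pairs and the macrophage sum was higher in all 3.

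Beyond the 57 genes, 109 further genes of mitosis and its control, from 8 lists, had a median log2 fold change of -0.10. Of these, 88 were below 0, 53 were lower in all 3 pairs and 0 were called by edgeR with or without the replicate block. The 28 genes of the inner centromere and outer kinetochore came nearest to the 57 in value, with a median of -0.15, 27 below 0 and 20 lower in all 3 pairs. Among them Cenpp, a subunit of the constitutive centromere network, measured 25.8, 25.0 and 17.1 CPM untreated and 18.99, 19.2 and 12.9 CPM with CDs, with a log2 fold change of -0.41 ± 0.25 and an adjusted p of 0.994 in edgeR. In Cenpp the CDs libraries 1 and 2 lay above untreated library 3 alone.

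The 16 subunits and partners of the anaphase-promoting complex had a median log2 fold change of -0.08, with 5 lower in all 3 pairs. Anapc13, a small subunit of that complex, measured 19.7, 17.69 and 16.5 CPM untreated and 13.6, 18.9 and 13.4 CPM with CDs, with a log2 fold change of -0.23 ± 0.19. The 14 cohesin genes had a median of -0.04, and Sgo1, the shugoshin that protects centromeric cohesin, measured 127, 128 and 85.9 CPM untreated and 117, 111 and 74.0 CPM with CDs. The 3 other condensin subunits had a median of -0.08, among them Ncaph2 of condensin II at -0.16 ± 0.22. Medians were -0.09 over 5 other mitotic kinesins, with Kif2a, a microtubule depolymerase, at 0.13 ± 0.14, and -0.04 over 10 entry kinases and exit phosphatase genes, with Cdc14b, a phosphatase, at 0.30 ± 0.26.

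Among 15 centrosome and spindle pole genes the median was -0.08, and Cep55, which acts in the last step of cytokinesis, measured 1.45, 3.12 and 10.9 CPM untreated and 3.89, 9.80 and 16.1 CPM with CDs. All 3 CDs libraries of Cep55 were above their untreated partners and library 3 was the highest of each group, the order of the macrophage markers and not that of the mitotic genes. DESeq2 with the replicate block called Cep55 higher, with an adjusted p of 0.00702. It called 2 further genes of the 109 lower, Cenpm at an adjusted p of 0.0252 and E2f4 at 0.0328, against 2.42% of the genes to which it gave an adjusted p. Over the alternatives run, the adjusted p of each of these 3 reached 1.00. Cenpm and E2f4 were named after their values were seen.

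The 18 genes of the B-MYB, FOXM1, MuvB and E2F list, which hold transcription factors of the cell cycle, had a median log2 fold change of -0.10, with 12 below 0. Mybl2, which encodes B-MYB, measured 310.1, 318 and 211 CPM untreated and 291, 270.2 and 153 CPM with CDs, with a log2 fold change of -0.23 ± 0.30. Foxm1 measured 200.03, 211 and 165 CPM untreated and 200.3, 191 and 143 CPM with CDs, with a level pair 1 and a log2 fold change of -0.11 ± 0.18. Lin9, a core MuvB subunit, measured 30.5, 31.5 and 29.9 CPM untreated and 25.8, 29.6 and 27.9 CPM with CDs, a narrow spread in which library 3 did not stand apart.

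Genes of DNA replication, which are transcribed earlier in the cycle, lay further below 0 than the mitotic genes. Of 40, 40 were below 0, with a median log2 fold change of -0.23, and 36 were lower in all 3 pairs, with medians by pair of -0.14, -0.23 and -0.34. Their sum was 11326, 11163 and 7240.3 CPM untreated and 10617, 9605 and 5792 CPM with CDs. edgeR called 0 of the 40 with or without the block. DESeq2 with the block called 6 of the 40 lower, against 2.42% of the genes to which it gave an adjusted p. Pcna, the sliding clamp of the replication fork, measured 785, 766 and 504 CPM untreated and 669, 697 and 441 CPM with CDs, with a log2 fold change of -0.19 ± 0.27. Both lists were compared with the same 6 libraries, and the difference between the lists was not tested.

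The D-type cyclins and CDK inhibitors, which act before the cell commits to a cycle, had a median log2 fold change of 0.10 over 10 genes, 2 of them below 0. Ccnd1, which encodes cyclin D1, measured 17.1, 15.8 and 17.6 CPM untreated and 143, 98.7 and 46.0 CPM with CDs. The groups did not overlap, and the CDs value was highest in library 1 and lowest in library 3. The log2 fold change was 2.51 ± 0.43, with an unadjusted p of 0.00149 and an adjusted p of 0.994 in edgeR, so that edgeR did not call it. DESeq2 called Ccnd1 both without the replicate block (adjusted p of 0.000177) and with it (0.000100), and edgeR with the macrophage covariate gave it an adjusted p of 0.0167.

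The 6 libraries held between 17695997 and 20066581 expected counts, and single mitotic genes had 661 to 85098 counts in a library, so that counting error was small beside the spread between libraries. The protocols name no step that marks strand. Some of these genes share exon bases with a neighbour: 29.3% of the exon bases of Kif20a with Cdc23, 22.8% of Ube2c with Tnnc2, 15.1% of Kif4 with Pdzd11, 13.4% of Ncapg with Lcorl, 12.7% of Cdc25c with Gm3550, 12.5% of Ccna2 with Exosc9 and 11.1% of Prc1 with Rccd1. If the reads carry no strand, those from such shared bases cannot be told apart. Ccnb1, Ccnb2, Kif4 and Kif22 have an annotated pseudogene of the same name, and their counts are uncertain to that extent.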

How the data were processed

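Polyadenylated RNA of 6 libraries was read over 50 bases from one end on a DNBSEQ instrument, per the labels' protocols, which name no step that marks strand. Per the submitters' processing notes, the build was GRCm38.p6 and the tools were RSEM 1.2.12, Bowtie2 2.2.5, DESeq2 1.4.5 and HISAT2 2.0.4, with no role given. The authors deposited expected counts per gene (30.1% not whole), which were rounded to whole numbers before each test. The second deposited table was taken as FPKM from its values, since count over FPKM and total gives 1 length per gene, and was used to compare levels between genes and to derive those lengths. Of 17691 genes, 17570 matched RefSeq by Entrez number.

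The main test was edgeR 4.0.16 in R 4.3.3 on genes kept by filterByExpr (12284 genes, 99.9% of counts) with TMM scaling (robust quasi-likelihood, treatment only, Benjamini-Hochberg over all genes tested, threshold 0.05). Alternatives used DESeq2 1.42.0, limma-voom (limma 3.58.1), other scalings and filters, a replicate block, a macrophage covariate and libraries left out. Pair differences used log2 CPM with a prior count of 2. The scripts were tested on simulated counts.

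The labels do not say whether replicates were separate cultures or litters, so the spread that p-values rest on is that of these samples and may be technical. No library was a copy of another: within groups the chi-square per degree of freedom was at least 11.1. Deviations from group means correlated between same-numbered libraries at 0.91, 0.33 and 0.94. Each was above 0.1, and the numbers were taken to pair them. Libraries of unlike number were not compared, so the correlations do not show that same-numbered libraries belong together. The biological coefficient of variation was 0.485 without the replicate block and 0.112 with it.

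The 57 genes, the other lists and the tests were chosen with earlier results of these data known. The genes named with their values are the 2 genes of highest mean CPM in each functional group, the further one of smallest unadjusted p, and the 3 highest and 3 lowest fold changes (26 genes), plus the smallest unadjusted p of each related list, Foxm1, Mybl2, Pcna and Ccnd1. A further 8, Cdk1, Ccnb1, Aurka, Hmmr, Cdc20, Mad2l1, Aurkb and Ndc80, were added after their values were seen.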

Additional observations from a re-analysis of the deposited data

How the results depend on the processing

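No gene was called by limma-voom, by edgeR with another scaling or filter, or with a library or number left out. The number of genes called was 14 with DESeq2, 5 with the edgeR replicate block (also with the length trend taken out), 6 with limma-voom and a replicate block, 1210 with DESeq2 and a replicate block and 38 with the macrophage covariate. Members of the mitotic list were called under 1 alternative, DESeq2 with the replicate block (1 gene). With the macrophage covariate 17 of the 57 were below 0 and their median was 0.030. Leaving out 1 library at a time, the number below 0 ran from 10 to 57, the median from -0.28 to 0.083, and the number with all CDs libraries below all untreated ones from 0 to 24 (24 without untreated library 3). The number lower in all 3 pairs was 27 to 38 under the other scalings (34 with TMM) and cannot be counted with a library left out. Without both libraries of number 1, 2 or 3 the median was -0.19, -0.15 and -0.11. Of the cell cycle genes and lists in the text, DESeq2 with the replicate block called Cks2, Cep55, Cenpm, E2f4, Ccnd1 and 6 DNA replication genes. The edgeR fit without the block called none of these, and DESeq2 without the block also called Ccnd1. Among the cell type markers tested, DESeq2 with the block called 11 of 12 macrophage and 4 of 10 granulocyte markers higher. It also called higher 2 of 10 hepatocyte, 3 of 6 endothelial and 2 of 7 stem and progenitor markers. A further 1 of 8 megakaryocyte and 1 of 6 mast cell and basophil markers were called higher. The 1 marker called lower was endothelial. Of the 10617 genes given an adjusted p, that fit called 953 higher and 257 lower. The cause of these shifts was not tested.

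The log2 fold change of Cenpf was below 0 in 11 alternatives that leave out no single library: -0.0059 with DESeq2, -0.0054 with limma-voom, -0.0059 with DESeq2 size factors in edgeR, -0.0045 with upper quartile scaling, -0.0023 with no filter on low counts, -0.0093 with the edgeR replicate block, -0.027 with the DESeq2 replicate block, -0.0098 with the limma-voom replicate block, -0.17 with both libraries numbered 1 left out, -0.14 with the length trend taken out and -0.16 with the length trend taken out and a replicate block. The log2 fold change of Mki67 was below 0 in 11 alternatives that leave out no single library: -0.015 with DESeq2, -0.023 with limma-voom, -0.015 with DESeq2 size factors in edgeR, -0.012 with upper quartile scaling, -0.011 with no filter on low counts, -0.026 with the edgeR replicate block, -0.043 with the DESeq2 replicate block, -0.027 with the limma-voom replicate block, -0.22 with both libraries numbered 1 left out, -0.14 with the length trend taken out and -0.17 with the length trend taken out and a replicate block. The log2 fold change of Ect2 was below 0 in 9 alternatives that leave out no single library: -0.012 with DESeq2, -0.012 with DESeq2 size factors in edgeR, -0.013 with upper quartile scaling, -0.0086 with no filter on low counts, -0.014 with the DESeq2 replicate block, -0.065 with both libraries numbered 1 left out, -0.018 with both libraries numbered 3 left out, -0.070 with the length trend taken out and -0.075 with the length trend taken out and a replicate block. That of Cdc25b was 0.0066 with both libraries numbered 3 left out. With the macrophage covariate 20 of the 46 named genes were above 0 instead of below: Ccna2 0.049, Cdc25b 0.061, Tpx2 0.049, Plk1 0.0081, Melk 0.023, Espl1 0.086, Cenpe 0.10, Incenp 0.059, Kif11 0.073, Kif20a 0.078, Top2a 0.058, Prc1 0.0044, Racgap1 0.028, Anln 0.061, Ccnb1 0.046, Aurka 0.082, Hmmr 0.12, Cdc20 0.024, Mad2l1 0.0015 and Ndc80 0.068. Leaving out 1 library at a time moved the log2 fold change of 30 named genes across 0, in most when CDs library 3 was left out: Anln ran from -0.27 to 0.067, Aurka ran from -0.39 to 0.13, Aurkb ran from -0.38 to 0.0005, Ccna2 ran from -0.30 to 0.091, Ccnb1 ran from -0.38 to 0.092, Cdc20 ran from -0.49 to 0.083, Cdc25b ran from -0.16 to 0.12, Cdk1 ran from -0.34 to 0.038, Cenpe ran from -0.30 to 0.14, Cenpf ran from -0.23 to 0.20, Ect2 ran from -0.16 to 0.16, Espl1 ran from -0.33 to 0.16, Foxm1 ran from -0.21 to 0.027, Hmmr ran from -0.40 to 0.12, Incenp ran from -0.23 to 0.10, Kif11 ran from -0.25 to 0.11, Kif20a ran from -0.29 to 0.13, Mad2l1 ran from -0.37 to 0.0086, Melk ran from -0.33 to 0.052, Mki67 ran from -0.24 to 0.18, Mybl2 ran from -0.41 to 0.0047, Ncaph ran from -0.28 to 0.024, Ncaph2 ran from -0.30 to 0.0024, Ndc80 ran from -0.14 to 0.083, Plk1 ran from -0.40 to 0.058, Prc1 ran from -0.30 to 0.052, Racgap1 ran from -0.22 to 0.083, Sgo1 ran from -0.34 to 0.0055, Top2a ran from -0.30 to 0.11 and Tpx2 ran from -0.34 to 0.089. None of these genes was called in the fits named here.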
